A study of Homo sapiens with 6 samples.

Results

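The 10 genes described here encode type I and type II receptors of the TGF-beta family: the type I receptors ACVRL1, ACVR1, ACVR1B, ACVR1C, BMPR1B and TGFBR1, and the type II receptors BMPR2, ACVR2A, ACVR2B and TGFBR2. They were followed through every array probe set that the platform annotation assigned to exactly 1 of them, 29 of the 49293 probe sets left after removing the array's own controls. A probe set is a group of short probes on the array that is summarised to a single value. All 10 genes were measured, each by 2 to 5 probe sets, 19 for the 6 type I and 10 for the 4 type II receptors. Receptors of the family outside these 10 were not followed.

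The cells were LX-2, an established line of human hepatic stellate cells, the liver cells that store vitamin A and that make scar matrix when activated. The 3 BMP9 samples were given 50 ng/ml recombinant human BMP9, the product of GDF2, for 24 h, and the 3 control samples 0 ng/ml for the same time; all 6 had first been kept without serum for 12 h. Each sample was hybridised to 1 Affymetrix 3′ expression array. The labels call the samples biological replicates without naming separate cultures, so a p-value here reflects only how far the 6 arrays scatter, which may be technical. In a culture measured in bulk, fewer cells that carry a transcript and less of it in each cell cannot be told apart.

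Ligands of this family are read by complexes of both receptor types: the type II receptor is a constitutively active serine/threonine kinase that phosphorylates the type I receptor, which then phosphorylates SMAD proteins. ACVRL1 (ALK1), ACVR1 (ALK2) and BMPR1B (ALK6) pass the signal to SMAD1, SMAD5 and SMAD9, while ACVR1B (ALK4), TGFBR1 (ALK5) and ACVR1C (ALK7) pass it to SMAD2 and SMAD3. BMP9 binds ACVRL1 with high affinity and pairs it with BMPR2, ACVR2A or ACVR2B. TGF-beta, the main fibrogenic signal of stellate cells, uses TGFBR2 and TGFBR1, and activins use ACVR2A or ACVR2B with ACVR1B or ACVR1C.

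The values are log2 expression values made by the authors with RMA, which puts all arrays on a common distribution. The array medians lay between 3.55 and 3.57, and Pearson's r across probe sets was 0.994 within the BMP9 group, 0.992 to 0.994 within the control group and 0.990 to 0.993 between them. Of the 13 measured stellate or mesenchymal markers, VIM (mean log2 value over 6 arrays 11.4), COL1A1 (9.76), SPARC (8.36), COL1A2 (7.59), COL3A1 (7.09) and DES (6.40) were bright. LUM (1.96), ACTA2 (3.97), THY1 (4.20), LRAT (4.23), DCN (4.27) and RGS5 (4.58) were dim, and PDGFRB (5.75) lay between. The mean log2 value of this list was 6.06 to 6.08 on the BMP9 arrays and 6.12 to 6.27 on the control arrays, without overlap, and 1 of the 13 was called: the collagen gene COL3A1, at 6.44 ± 0.063 with BMP9 and 7.73 ± 0.057 in control (SD, n = 3, difference -1.29, limma adjusted p = 2.4e-05). VIM differed by -0.37 and the dim DCN by -0.74, both without overlap, and neither passed (limma adjusted p = 0.0786 and 0.194). The part of these shifts in the receptor results was not tested. The lists of 9 endothelial, 8 hepatocyte, 8 leukocyte and 6 epithelial markers had 0 called members, and the mean log2 value of the endothelial list was 4.62 to 4.72 on the BMP9 arrays and 4.63 to 4.72 on the control arrays. TYROBP (7.46), CD68 (6.91) and TIE1 (6.84) of these lists were brighter than DES. A mean log2 value of at least 5 was reached by 7 of 13 stellate, 5 of 9 endothelial, 3 of 8 hepatocyte, 4 of 8 leukocyte and 1 of 6 epithelial markers. Brightness is therefore not read as cell identity. The array's own control RNAs were dimmer on the BMP9 arrays, by 0.21 on average for the hybridisation controls and by 0.53 for the poly-A controls (log2). Their part in the results was not tested beyond rescaling the arrays to them.

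ACVR2A, a type II receptor that binds activins and several BMPs, was the receptor gene that fell with BMP9. Its brightest probe set, 11727163_a_at, read 8.001, 7.72 and 7.84 on the BMP9 arrays, against 8.54, 8.41 and 8.59 on the control arrays. The groups did not overlap, and the highest BMP9 array lay below the lowest control array. The means were 7.85 ± 0.14 with BMP9 and 8.51 ± 0.092 in control (SD, n = 3 arrays each), a log2 difference of -0.66 (SE 0.094, 95% interval -0.86 to -0.45), which is 1.58-fold lower with BMP9 (limma adjusted p = 0.0123 over the whole array).

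The other ACVR2A probe sets lay in the same direction on the deposited scale. Whether they share probes with the first was not checked, so they are not taken as independent measurements. Probe set 11727164_at read 4.91, 4.69 and 4.79 on the BMP9 arrays, against 5.20, 5.37 and 5.49 on the control arrays. It differed by -0.55 (SE 0.098), 1.47-fold lower with BMP9, and also passed (limma adjusted p = 0.0413). Probe set 11752492_a_at read 3.42, 3.29 and 3.23 with BMP9, against 3.79, 3.64 and 3.71 in control. Its difference of -0.40 (SE 0.084) did not pass (limma adjusted p = 0.0909), although its groups did not overlap either. The sizes of the first and second probe sets differed from each other by 0.10 on the log2 scale (exact two-sided permutation p = 0.3), and those of the first and the dimmest by 0.25 (exact permutation p = 0.1, the smallest that 3 against 3 arrays allow). Averaged over its 3 probe sets ACVR2A differed by -0.54 (SE 0.069, limma adjusted p = 0.0158 over all genes).

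The ACVR2A calls were close to the threshold and depended on the full set of arrays. The brightest probe set lost its call when control replicate 1, control replicate 3, BMP9 replicate 2 or BMP9 replicate 3 was left out (difference -0.65 to -0.59, limma adjusted p 0.0629 to 0.0762), and 11727164_at kept its call only without control replicate 1 among the 6 omissions. With the replicate number as a block 11727164_at lost its call (limma adjusted p = 0.0921), and a test against a fold minimum of 1.2 ended both calls (adjusted p = 0.384 and 1). Scaling the arrays to the poly-A controls, which raised the median difference of all probe sets to 0.54, left differences of -0.13 and -0.02 for the pair of called probe sets (limma adjusted p = 0.464 and 0.895) and turned 11752492_a_at to 0.13, so ACVR2A then stood below the median of all probe sets but no longer below its own control level by the test. With scaling to the hybridisation controls, which raised that median to 0.22, both calls held, at -0.45 and -0.34.

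**Figure D1:**
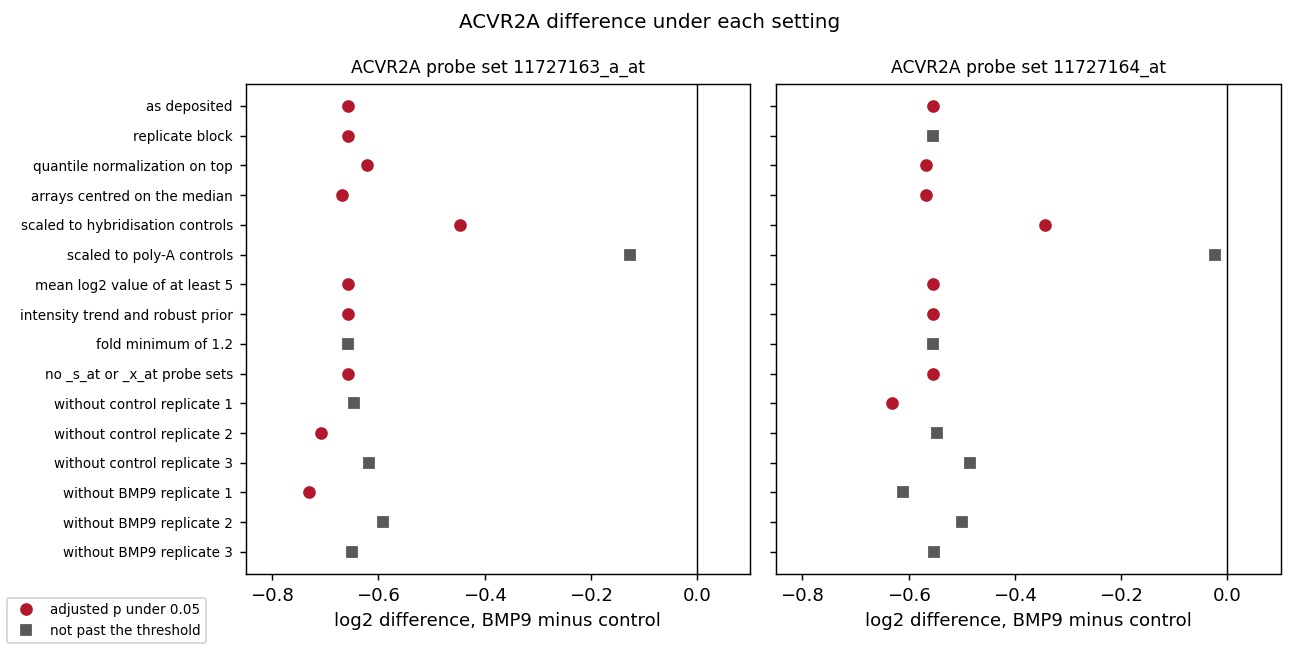
Log2 difference, BMP9 minus control, of the called ACVR2A probe sets (left 11727163_a_at, right 11727164_at) under each processing setting; circles passed a limma adjusted p of 0.05 and squares did not. All points lie below 0, from -0.73 to -0.13 on the left and from -0.63 to -0.02 on the right, and poly-A scaling gives the points nearest 0.

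ACVR2B, the closest paralogue of ACVR2A and a receptor for the same ligands, was not called. Its brighter probe set, 11727681_a_at, read 6.08, 6.13 and 6.03 on the BMP9 arrays, against 5.98, 5.89 and 5.92 on the control arrays. The groups did not overlap, with BMP9 higher by 0.15 (SE 0.076, 95% interval -0.02 to 0.32), and the difference did not pass (limma adjusted p = 0.492). The other probe set, 11727682_at, differed by -0.02, which turned positive under either control scaling. Taken per array, the difference between ACVR2A and ACVR2B was lower with BMP9 by 0.81 on the log2 scale, and the arrays of the groups did not overlap (exact two-sided permutation p = 0.1, the smallest possible). The same contrast of ACVR2A with each of the 9 other receptors used the brightest probe sets and was chosen after the values were seen. It separated the groups for 8 (adjusted over the 9, exact permutation p = 0.113) and left them overlapping for TGFBR2 (difference -0.28, exact permutation p = 0.3). All of these contrasts reuse the ACVR2A values, which separated the groups by themselves. No conclusion about the other receptors is therefore drawn from them.

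The reference promoters of this pair are shown because 1 paralogue was called and the other was not; no factor binding or methylation was measured. Both are 300 bases, from 250 before to 50 after a RefSeq transcript start, read on the + strand of GRCh38.p14 and written 5′ to 3′. Capitals mark GTCT or its reverse complement AGAC, the core SMAD-binding letters, and GGCGCC, a GC-rich form bound by SMAD1/5, of which neither promoter holds a copy; the motifs share no bases.
ACVR2A, chr2:147844779-147845078: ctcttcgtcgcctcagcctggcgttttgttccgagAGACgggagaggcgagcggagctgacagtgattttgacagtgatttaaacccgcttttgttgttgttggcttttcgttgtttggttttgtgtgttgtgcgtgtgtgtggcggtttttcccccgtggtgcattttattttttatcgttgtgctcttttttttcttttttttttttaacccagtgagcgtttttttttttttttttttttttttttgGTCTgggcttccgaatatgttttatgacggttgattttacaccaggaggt
ACVR2B, chr3:38453640-38453939: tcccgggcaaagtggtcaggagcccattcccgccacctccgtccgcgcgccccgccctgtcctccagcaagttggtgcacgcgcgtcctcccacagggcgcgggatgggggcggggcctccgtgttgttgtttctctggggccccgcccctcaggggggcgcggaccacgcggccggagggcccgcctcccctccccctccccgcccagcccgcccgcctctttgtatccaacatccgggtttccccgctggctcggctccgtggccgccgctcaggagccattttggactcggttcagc
The ACVR2A window has 2 GTCT matches, 41.3% G or C and 16 CpG, and the ACVR2B window has 0 matches, 73.0% G or C and 31 CpG. Over all 35116 promoter windows of this length, 84.0% hold GTCT on either strand and 19.2% hold GGCGCC. The median count of GTCT matches is 2, and the median G or C content is 58.7%. Among receptors not called on the deposited scale, the windows hold from 0 GTCT matches, as in ACVR2B, to 6, as in BMPR2. A link between the matches and the response was not tested. Promoter windows were found for 9 of the 10 receptors, 23 windows in all, and ACVRL1 was not matched.

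TGFBR2, which binds TGF-beta itself and recruits TGFBR1, had the next largest negative difference. Probe set 11750840_s_at read 4.60, 4.99 and 4.73 on the BMP9 arrays, against 5.12, 5.12 and 5.20 on the control arrays. No array of the groups overlapped, and the BMP9 arrays were spread more widely (SD 0.20 with BMP9 and 0.047 in control, n = 3 each). The difference of -0.38 (SE 0.10, 95% interval -0.60 to -0.15), a fold of 0.771, did not pass (limma adjusted p = 0.193) and turned to 0.16 with poly-A scaling. The other TGFBR2 probe set, 11724682_s_at, was dim, at 2.05 ± 0.24 with BMP9 and 2.06 ± 0.18 in control (SD, n = 3), and differed by -0.01. Both names end in _s_at, Affymetrix's mark for probes that may match transcripts of more than 1 gene.

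BMPR2, 1 of the type II receptors that BMP9 pairs with ACVRL1, differed little in any of its 3 probe sets. The brightest, 11728699_at, read 3.95, 3.91 and 3.56 on the BMP9 arrays, against 3.85, 3.65 and 3.79 on the control arrays, with groups that overlapped. Its difference was 0.05 (95% interval -0.20 to 0.29, limma adjusted p = 0.906), and those of 11756105_a_at and 11728700_a_at were 0.05 and 0.00. The 3 intervals together run from 0.818-fold to 1.28-fold, on the deposited scale. Under poly-A scaling the 3 differences were 0.53 to 0.59 and all were called higher (limma adjusted p 0.0016 to 0.0033). That scaling raised the median of all probe sets to 0.54 and called 45775 of 49293 higher. The BMPR2 values thus lay near the shift of the whole array. Under hybridisation scaling the 3 differences were 0.21 to 0.27, beside a median of 0.22, and none was called. All 3 lay between mean log2 values of 3.18 and 3.79, and whether they stand above background is not known.

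**Figure D2:**
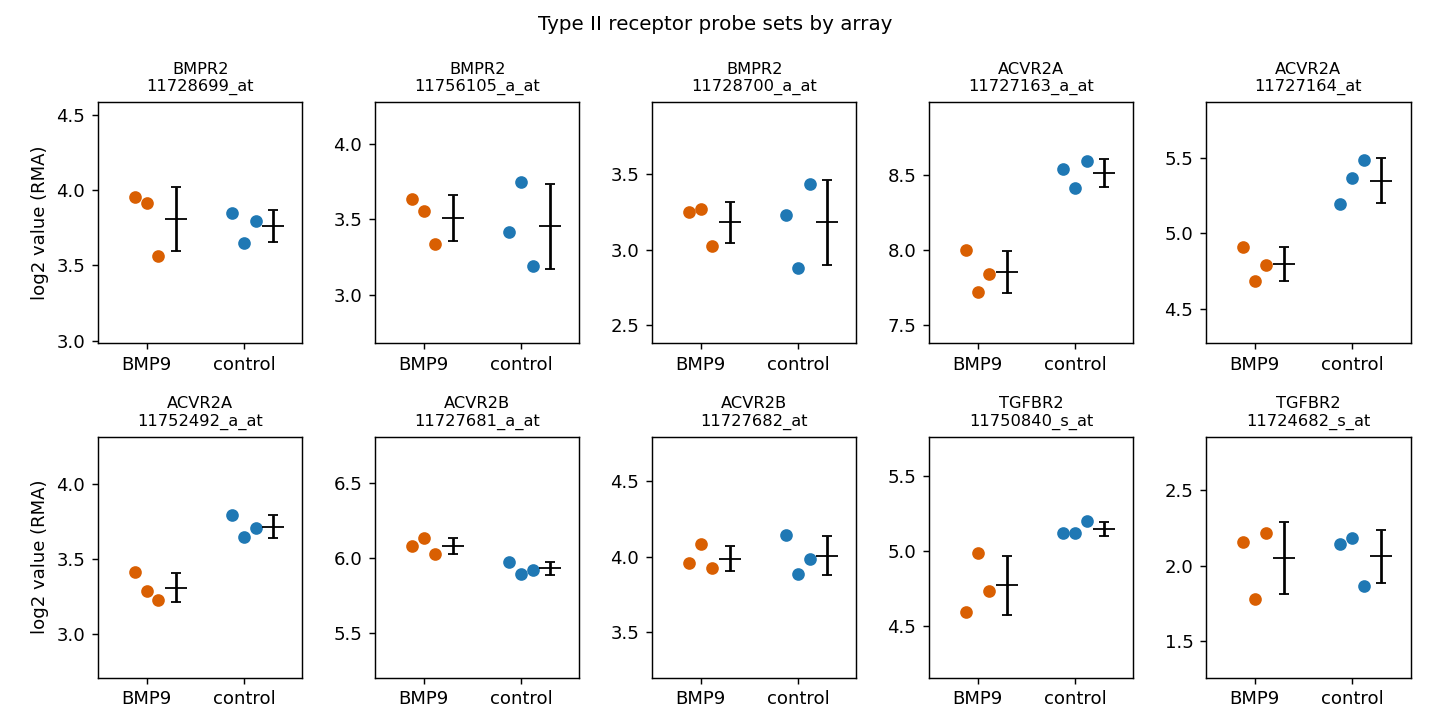
RMA log2 values of all 10 probe sets of the type II receptors by array; points are arrays (BMP9 left, control right), bars beside them the mean ± SD of 3 arrays, and every panel spans the same log2 range around its own mean. The 3 ACVR2A panels and TGFBR2 11750840_s_at show every BMP9 array below every control array, ACVR2B 11727681_a_at the opposite, and the BMPR2 panels overlap.

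Among the type I receptors followed here, none of the 19 probe sets passed in limma. Of their differences 14 were positive and 5 negative, with a median of 0.09, and 2 had an unadjusted p under 0.05. ACVRL1, the high-affinity BMP9 receptor best known from endothelium, read 4.57, 4.50 and 4.44 on the BMP9 arrays, against 4.63, 4.56 and 4.40 on the control arrays, in probe set 11721573_a_at. The groups overlapped, and the difference was -0.03 (95% interval -0.22 to 0.16, limma adjusted p = 0.935). Its other probe set, 11747260_a_at, differed by -0.07 (95% interval -0.34 to 0.20). Both ACVRL1 differences turned positive with either control scaling. They stayed below the median of all probe sets, 0.22 with hybridisation scaling and 0.54 with poly-A scaling.

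ACVR1, a receptor of several BMPs, was measured by 4 probe sets, all with small positive differences of 0.06 to 0.24. The brightest, 11747841_a_at, read 5.08, 5.38 and 4.94 with BMP9, against 4.77, 5.07 and 4.86 in control, and the groups overlapped (limma adjusted p = 0.498). In 11718648_s_at, a dimmer probe set at 3.59 ± 0.019 with BMP9 and 3.45 ± 0.093 in control (SD, n = 3), all BMP9 arrays were above all control arrays, without passing (difference 0.15, limma adjusted p = 0.531).

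BMPR1B, also a BMP-branch receptor, read 3.45, 3.06 and 3.14 with BMP9, against 2.87, 3.03 and 2.95 in control, in probe set 11750431_a_at. This probe set was itself dim, with a mean log2 value of 3.085. The BMP9 arrays were all higher and BMP9 replicate 1 highest. The difference of 0.27 (SE 0.11, 95% interval 0.03 to 0.50) did not pass (limma adjusted p = 0.376), and the still dimmer 11728085_s_at differed by 0.09.

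ACVR1B, an activin type I receptor, had 5 probe sets, which did not go 1 way. Probe set 11720437_at read 6.99, 6.89 and 6.92 on the BMP9 arrays, against 6.83, 6.79 and 6.66 on the control arrays. All BMP9 arrays were higher, by 0.18 on average (SE 0.081, limma adjusted p = 0.441). Probe set 11720438_a_at read 6.03, 5.87 and 5.74 with BMP9, against 5.45, 5.53 and 5.75 in control. Its difference of 0.30 (95% interval 0.07 to 0.53, limma adjusted p = 0.316) was the highest of the 29, and the groups overlapped through control replicate 3. The other 3 ACVR1B probe sets differed by 0.00, -0.04 and -0.10.

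TGFBR1, the type I partner of TGFBR2, was dim in all 3 probe sets, with mean log2 values of 2.16 to 3.03. The brightest, 11746441_a_at, read 3.01, 3.33 and 3.10 with BMP9, against 3.13, 2.70 and 2.92 in control, with overlap and a difference of 0.23 (limma adjusted p = 0.498). The other TGFBR1 probe sets differed by 0.09 and 0.07. ACVR1C, a receptor of nodal and activin B, was likewise dim (1.95 to 3.57), and its 3 probe sets differed by 0.06, 0.13 and 0.17, with overlapping groups in each (limma adjusted p 0.515 to 0.819).

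**Figure D3:**
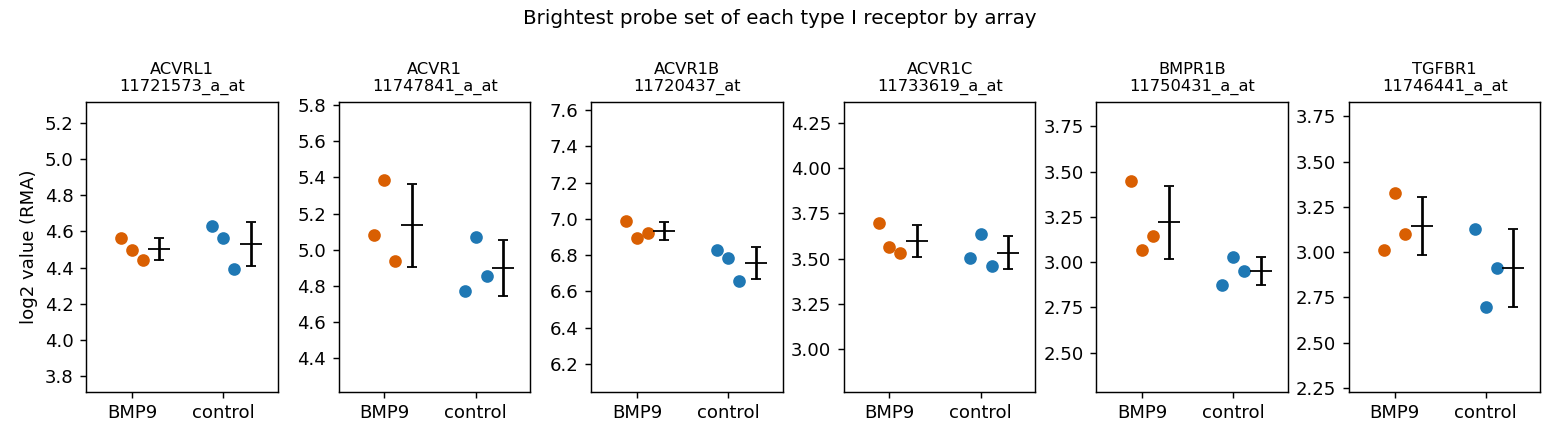
RMA log2 values of the brightest probe set of each type I receptor by array; points are arrays (BMP9 left, control right), bars the mean ± SD of 3 arrays, and every panel spans the same log2 range around its own mean. ACVR1B and BMPR1B show all BMP9 arrays above all control arrays, by 0.18 and 0.27 on average, and neither passed the test.

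Read together, 2 of the 29 receptor probe sets passed, 0 higher and 2 lower, both of ACVR2A. Over all probe sets limma called 202 of 49293, or 0.41%, of which 66 (0.134%) were higher and 136 (0.276%) lower with BMP9. In the comparison by gene, with the brightest probe set of each, 1 of the 10 receptors passed, beside 0.684% of 18132 genes. At an unadjusted limma p under 0.05 there were 6 receptor probe sets, beside 11.4% of all, and in 8 of 29, 4 higher and 4 lower, the arrays of the groups did not overlap, beside 17.3% of all. The median difference of the 29 was 0.06, beside 0.01 over all probe sets, and the median size without sign was 0.09 and 0.08. Of the 10 genes, 5 had positive differences in all their probe sets, 3 (ACVRL1, ACVR2A and TGFBR2) negative ones, and ACVR1B and ACVR2B both. Scaling to the hybridisation controls gave 9 receptor probe sets called higher and 2 lower (10445 and 143 over all), and scaling to the poly-A controls gave 25 and 0 (45775 and 30 over all).

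**Figure D4:**
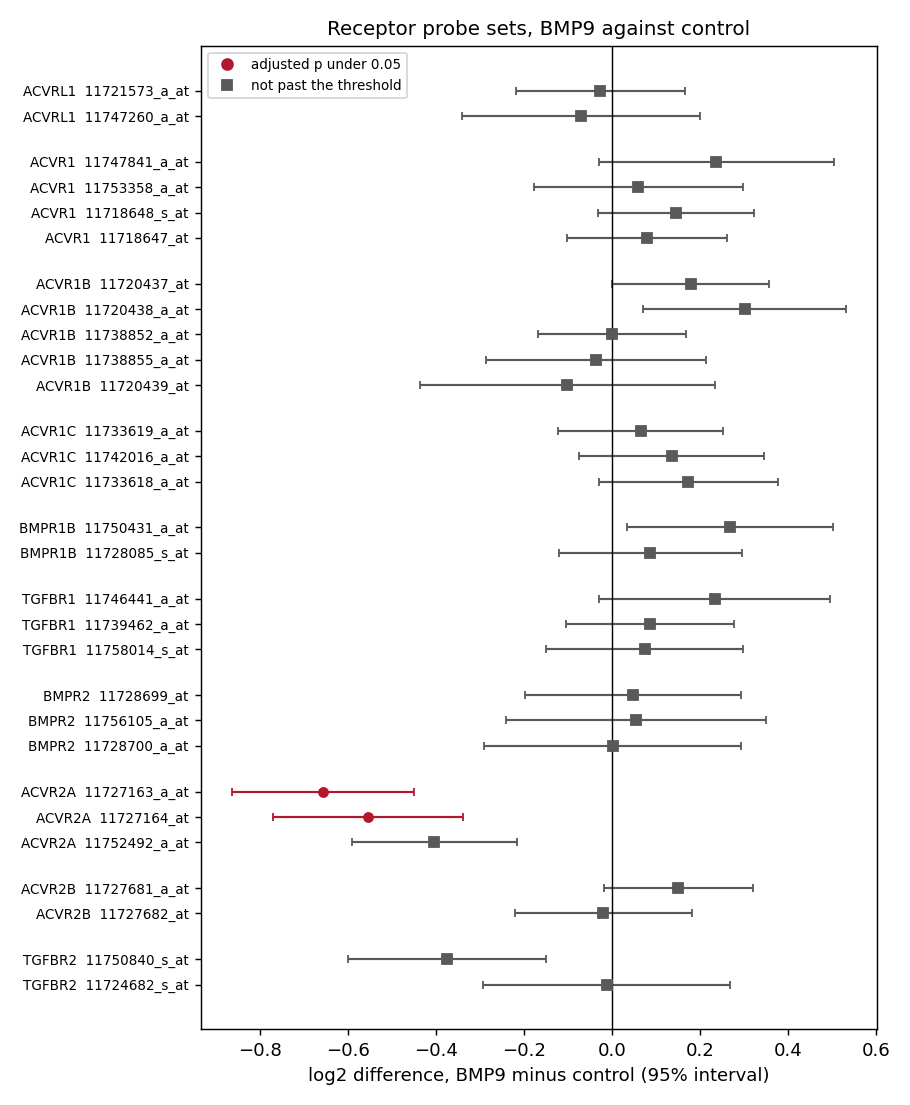
Log2 difference, BMP9 minus control, with its 95% interval, for the 29 receptor probe sets in order of gene, type I above type II and brightest first within a gene; circles passed a limma adjusted p of 0.05 and squares did not. The 3 ACVR2A intervals and that of TGFBR2 11750840_s_at lie below 0, and the remaining ones reach 0 or lie just above it.

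For the 24 probe sets of receptors other than ACVR2A and TGFBR2, the 95% intervals reached no lower than 0.739-fold and no higher than 1.45-fold on the deposited scale. Levels are not set against each other here, since brightness also depends on the probes. The array carries 23 probe sets that match no human sequence and that rise with the G and C content of their probes, with mean log2 values of 2.22 at 13 G or C bases, 2.86 at 15 and 4.09 at 17. Of the receptor probe sets 4 lay at or below the first of these levels, 7 at or below the second and 19 at or below the third. The base content of the receptor probes was not used here, so which of the dim receptors stand above background is not settled, and their small differences do not show that they were unchanged.

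The probe sets of other genes that followed ACVR2A most closely were found by the root-mean-square distance between the 6 log2 values, each centred on its own mean. Nearest to 11727163_a_at were probe sets of ATP6V0B, a subunit of the vacuolar proton pump (distance 0.043, difference -0.68), HMGN3, a nucleosome-binding protein (0.047, -0.69), and MEIS1, a TALE homeobox factor (0.061, -0.55). Nearest to 11727164_at were COL4A6, a basement membrane collagen (0.044, -0.55), the zinc finger repressor ZEB1 (0.055, -0.63) and the haem transporter SLC48A1 (0.058, -0.52). The COL4A6 and SLC48A1 probe sets did not pass (limma adjusted p = 0.053 and 0.0566), while the other named ones did. COL4A6 was also dim, at 2.87 on average with BMP9 and 3.42 in control. As the groups were 3 arrays each, any probe set that was lower with BMP9 by a like amount comes near.

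The rest of the pathway was set beside the receptors from lists written with earlier results known, each gene by its brightest probe set in the fit over 18132 genes. Of 15 ligands 0 rose and 1 fell, the activin subunit gene INHBB, at 5.24 ± 0.29 with BMP9 and 6.15 ± 0.069 in control (SD, n = 3, limma adjusted p = 0.0103), with a median difference of 0.06 over the list. TGFB3 differed by 0.31 and GDF11 by -0.18, and neither passed, as did not GDF2, the gene of BMP9 (-0.04). Of 7 measured co-receptors and decoys 0 rose and 1 fell, the BMP co-receptor RGMB (difference -0.57, limma adjusted p = 0.0211), with a list median of 0.01. TGFBR3, the betaglycan co-receptor of TGF-beta, differed by -0.31 and RGMA, another BMP co-receptor, by -0.32 (limma adjusted p = 0.0984 and 0.101), and the endothelial co-receptor ENG by 0.04. A second RGMA probe set, 11754792_a_at, read 6.46, 6.86 and 6.57 with BMP9, against 8.11, 8.01 and 8.11 in control, and passed over all probe sets (difference -1.45, limma adjusted p = 1.1e-04), while 3 further ones did not. A second TGFBR3 probe set, 11718901_at, read 4.06 on average with BMP9 and 4.90 in control and passed over all probe sets (difference -0.84, limma adjusted p = 0.0236). Under poly-A scaling INHBB was still called lower (difference -0.38), while RGMB came to -0.04 and was not called.

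Downstream, 1 of 8 SMAD genes rose and 0 fell: the inhibitory SMAD6, at 8.99 ± 0.078 with BMP9 and 5.97 ± 0.17 in control (SD, n = 3, difference 3.01), with a list median of -0.02. SMAD2 differed by -0.35 and SMAD1 by 0.26, and neither passed (limma adjusted p = 0.185 and 0.365). Of 10 BMP target genes 4 rose and 0 fell, namely SMAD6, ID3 (1.63), ID2 (1.21) and ID4 (0.99), with a list median of 0.31. ID2 was at the threshold, with a limma adjusted p of 0.0492 by gene and 0.0532 for the same probe set over all probe sets. ID1 differed by 0.14 in its brightest probe set and did not pass. Its probe set 11753661_a_at read 6.01 on average with BMP9 and 2.8 in control. That difference of 3.21 passed over all probe sets (limma adjusted p = 1.7e-05), while 11716195_a_at differed by 0.32 and did not pass (limma adjusted p = 0.388). These genes encode SMAD6, which dampens signalling by BMP receptors, and the ID proteins, which bind and block basic helix-loop-helix factors. Of 21 measured genes that regulate receptor turnover or activity, 0 rose and 0 fell in limma, 5 had an unadjusted p under 0.05, and the differences ran from -0.32 to 0.22 around a median of 0.04. CAV1, which sequesters receptors in caveolae, differed by -0.26, the deubiquitinase USP15 by -0.29 and the receptor-associated STRAP by 0.22. Over all genes the median difference was 0.01, and 12.9% had an unadjusted limma p under 0.05. Beside that share, the lists had 5 of 21 turnover genes, 3 of 15 ligands, 4 of 7 co-receptors, 3 of 8 SMAD genes, 6 of 10 BMP targets and 4 of the 10 receptors at an unadjusted p under 0.05.

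**Figure D5:**
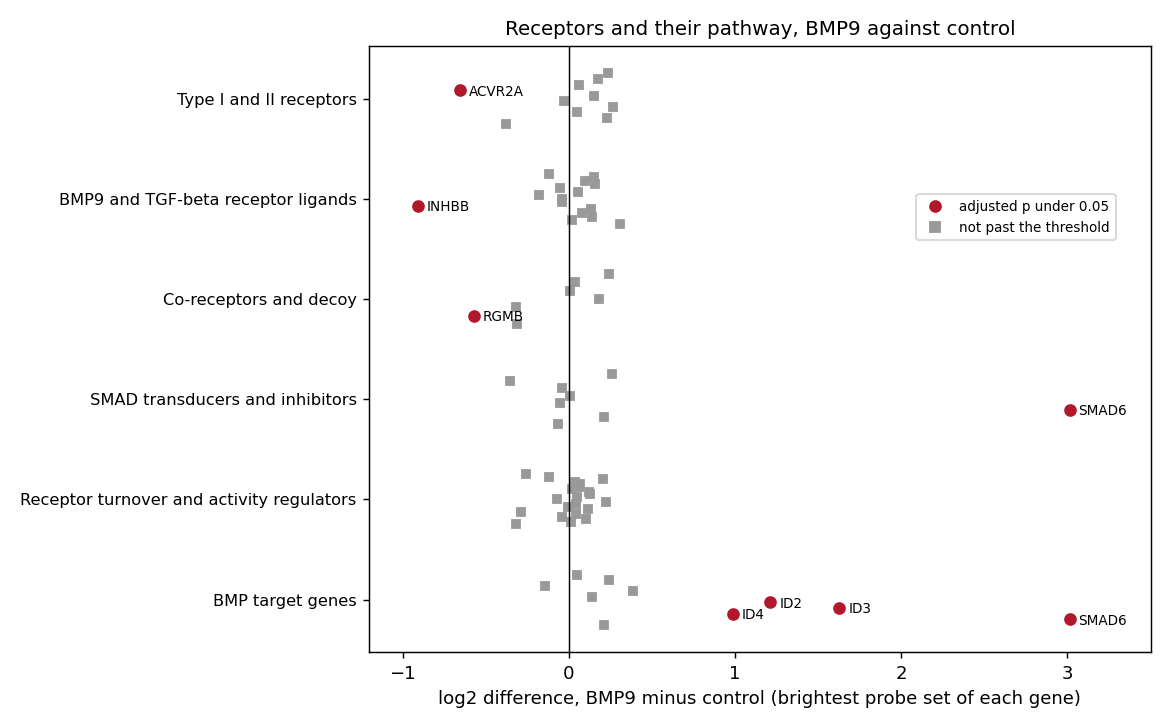
Log2 difference, BMP9 minus control, of the brightest probe set of each gene, by list; red circles passed a limma adjusted p of 0.05 over all genes and are named, grey squares did not. The 10 receptors lie between -0.66 (ACVR2A) and 0.27, the ligand INHBB and the co-receptor RGMB lie on the same side as ACVR2A, and SMAD6 (3.01) lies farthest to the right.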

How the data were processed

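Expression was measured on 1 array for each of 6 samples, 3 BMP9 and 3 control. Each probe set has a log2 value that the authors deposited after summarising the probes by RMA, per the submitters' processing notes. Neither the software version nor the log base is stated in what was used, and the base was taken from the range of the values. RMA's normalisation removes most of a change shared by all transcripts. No depth applies, and the number of arrays limits the precision.

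Of 49395 probe sets, 102 array controls were left out. The platform annotation gives 44988 of the rest 1 gene symbol, 1832 several and 2473 none. All 10 receptors matched the RefSeq gene table of GRCh38.p14 by Entrez identifier, with the same symbols. Columns were matched to samples by identifier, and any 2 arrays shared at most 0.00406% of identical values.

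limma 3.58.1 in R 4.3.3 (lmFit and eBayes without covariates) tested BMP9 minus control over all 49293 probe sets, with Benjamini-Hochberg adjustment, a threshold of 0.05 and 95% intervals; the code was tested on simulated data. A second fit used the brightest single-gene probe set of 18132 genes. The receptors and lists were chosen with earlier results of these data known. Every receptor probe set is accounted for. List members named are up to 3 with the smallest p in each list and ID1, ID3, SMAD6, ENG and GDF2. ID2, SMAD7 and the markers were named after their values were seen. For each called receptor probe set the 3 nearest genes are named. Alternatives were the replicate number as a block, other scalings, filters and priors, a fold minimum, and each array left out. The control RNA scalings used 18 hybridisation and 24 poly-A probe sets. Figures were drawn with matplotlib 3.10.9. Promoter sequences are from RefSeq.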

Additional observations from a re-analysis of the deposited data

How the results depend on the processing

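The count of receptor probe sets called, 2, was the same with further quantile normalisation, median centring, a minimum mean log2 value of 5, an intensity trend with a robust prior and no _s_at or _x_at probe sets. It was 1 with the replicate number as a block, 11 with hybridisation scaling, 25 with poly-A scaling, 0 with limma's treat at a fold minimum of 1.2 (2 at an unadjusted p under 0.05), and 0 to 1 with an array left out. By gene the count of 1 became 6 under hybridisation scaling and 8 under poly-A scaling. It was 0 with the fold minimum and 0 to 1 with an array left out. The matching counts over all genes were not made under these settings. The by-gene counts are therefore not read as a result about the receptors. The count over all probe sets, 202, was 160 with the replicate block, 10588 with hybridisation scaling, 45805 with poly-A scaling, 449 with the intensity minimum, which tests 11438 probe sets, 429 with the trend, 47 with the fold minimum and 88 to 137 with an array left out. ACVRL1 turned to 0.50 under poly-A scaling and was called there, in both fits, though below the median of 0.54 over all probe sets. Where no cause is named, the cause was not tested. Outside the control scalings the other 9 receptors passed in 0 of 229 alternative values in limma, and 10 of these changed sign. The values come from each receptor's brightest probe set in the probe-set and gene fits, and from the mean over its probe sets. Most differences, and every change of sign, are therefore counted in both fits. Deviations of same-numbered arrays from their group means did not go together (r = -0.0017, 0.034 and -0.023), so the numbers are not taken as pairs; the block ended the call of ACVR2A 11727164_at (adjusted p = 0.0921).

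The values carry no detection calls, 3 arrays a group allow no exact p under 0.1, and the standard error of a log2 difference, 0.092 at the median probe set, makes small differences hard to call.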
